A study of Mus musculus with 12 samples.

Results

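Immediate early response genes are the genes that a cell transcribes first when it is stimulated or stressed, from transcription factors that are already present and without making new protein. A set of 36 of them, chosen by gene name with earlier results of these data known, was followed through the series. Fosl1 was not analysed here. The other 35 were listed in each of both deposited tables, among the 13733 nuclear protein-coding genes that the tables shared. They were 3 Fos and 3 Jun members of the AP-1 family, 3 EGR factors, Atf3 with the small MAF genes Maff and Mafk, 3 NR4A receptors, 4 KLF factors, Srf with Myc and Csrnp1, 3 IER genes, Btg1 and Btg2, Zfp36 and Zfp36l1, 3 Gadd45 genes with Ppp1r15a, and Rhob with Sik1.

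The mice were edited with CRISPR-Cas9 to carry either allele of a coding polymorphism of Sh2b3 in both copies, so that they were Arg/Arg or Trp/Trp. All had received angiotensin II, the hormone of the renin system that constricts vessels and causes hypertension, for 4 weeks, and no group without it was analysed here. The 12 polyA RNA libraries formed 4 groups of 3 biological replicates: Arg/Arg and Trp/Trp whole kidney, and Arg/Arg and Trp/Trp F4/80+ preparations. Whole kidneys went into an RNA-preserving solution and were then homogenised, whereas the F4/80+ preparations came from other kidneys by a Percoll gradient and anti-F4/80 magnetic beads. Strain, age and sex of the mice, the number of edited lines and any pooling of animals are not given in these sources.

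The immediate early response is known to start when growth factors, stretch, hormones or stress activate the MAP kinases, which act on serum response factor and its partners at CArG boxes and on CREB at cAMP response elements (CRE). The first products are transcription factors such as FOS, JUN, EGR1 and ATF3, and the second group are brakes: RNA-binding proteins such as tristetraprolin (Zfp36), which destroys AU-rich messenger RNAs, and antiproliferative or stress proteins. In kidney and other solid tissues these genes are also known to be switched on while a tissue is dissociated into cells.

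Total counts were 19.6 to 54.7 M (mega) per kidney library and 35.9 to 51.6 M per F4/80+ library. Mitochondrially encoded genes took 7.9 to 9.4% of the counts in kidney and 70.1 to 83.6% in F4/80+ libraries, which left 17.76 to 49.92 M and 6.88 to 11.14 M nuclear protein-coding counts. Levels are given below as CPM, counts scaled to a common library size that holds those nuclear protein-coding counts only, for each library in the order of replicates 1, 2 and 3, and means as mean ± SD. A log2 fold change is given ± its SE. Adgre1, the gene of F4/80, did not pass the test between sample types (log2 fold change 0.15 ± 0.47), at 4.12 to 8.33 CPM in kidney and 1.26 to 16.7 CPM in F4/80+ libraries. Of the 12 macrophage markers tested 3 were higher and 7 lower in F4/80+ libraries than in kidney, and C1qa and Csf1r were among the lower (-2.88 ± 0.32 and -1.48 ± 0.13). Median levels were higher in F4/80+ libraries for Cd68 (9.65 against 3.10 CPM), Mrc1 (9.83 against 4.65 CPM), Lyz2 (47.7 against 18.1 CPM) and Cd81 (527 against 280 CPM). Markers of T and NK cells were not listed in the F4/80+ table. The libraries labelled as macrophages are therefore called F4/80+ preparations throughout.

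The main comparison set the 6 F4/80+ against the 6 kidney libraries. Of the 35 genes, 31 were higher and 3 were lower in F4/80+ preparations by edgeR's quasi-likelihood test at a Benjamini-Hochberg adjusted p under 0.05 over all 13578 genes tested, and Rhob passed in neither direction. Among all genes tested 63.7% were called, 26.4% higher and 37.4% lower, and DESeq2 called 66.8%, with the same 31 and 3 counts among the 35. The median log2 fold change (F4/80+ over kidney) was 2.51 over the 35 genes and -0.13 over all genes. For 27 of the 35, every F4/80+ library lay above every kidney library, against 15.1% of all genes, and for 3 every F4/80+ library lay below (27.1% of all genes). Together the 35 genes summed to 1176 ± 37.2 CPM in kidney and 11319 ± 2916 CPM in F4/80+ preparations (SD, n = 6), with kidney libraries at 1133 to 1220 CPM. Markers of several cell types differed between the same libraries. Of the thick ascending limb and distal tubule markers 5 of 7 were higher and 1 was lower in F4/80+ preparations (median log2 fold change 1.11), and of the collecting duct markers 6 of 8 were higher and 1 was lower (1.18). Of the proximal tubule markers 2 of 10 were higher and 5 lower (-0.59). Lower were 7 of 8 endothelial markers (-1.05), 5 of 5 podocyte markers (-1.71) and 6 of 10 markers of fibroblasts, pericytes and smooth muscle (-2.62), of which 3 were higher. The part of these cell types in the difference between sample types was not tested. The handling of the material, the cells present and the sample type cannot be told apart in this design, and in such bulk RNA neither can the number of cells of a type and the RNA per cell. The 2 tables were made separately by the authors, and the fit across them used their raw counts.

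**Figure D1:**
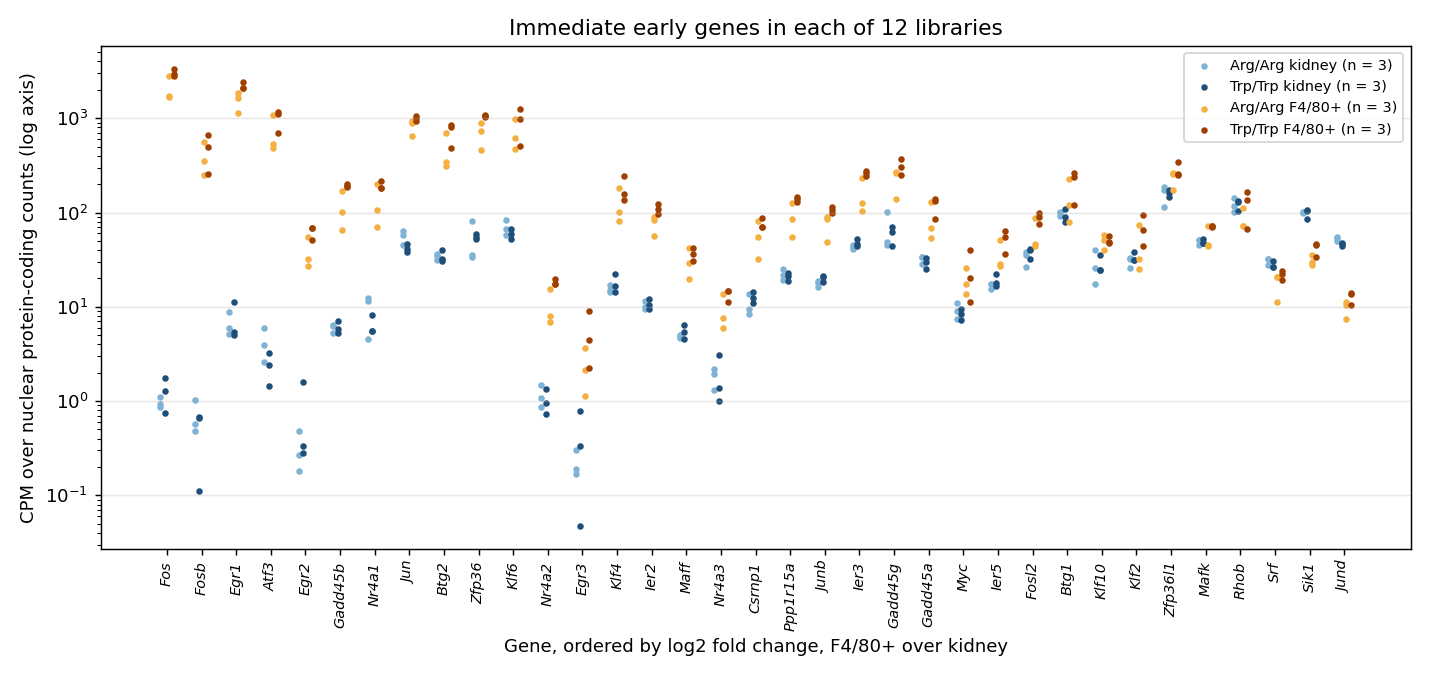
Level of each of the 35 genes in each of the 12 libraries, in CPM over nuclear protein-coding counts on a log axis, with 3 libraries a group. Genes run from the highest to the lowest log2 fold change; Fos lies between 0.756 and 1.74 CPM in kidney and between 1678 and 3347 CPM in F4/80+ libraries, and Jund, at the right end, is lower in every F4/80+ library.

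The Fos proteins pair with Jun proteins to form AP-1, a factor that binds the promoters and enhancers of growth and stress genes. Fos (chr12:85473890-85477273, mm10) was at 1.12, 0.921 and 0.871 CPM in Arg/Arg and 1.74, 0.756 and 1.29 CPM in Trp/Trp kidneys. It was at 2839, 1678 and 1731 CPM in Arg/Arg and 2785, 3347 and 2952 CPM in Trp/Trp F4/80+ preparations. Fos was near the bottom of the kidney transcriptome and near the top in F4/80+ preparations. On a length-scaled level (TPM over the same genes) it stood at the 8.02 to 13.5 percentile of kidney genes and at the 99.7 to 99.9 percentile in F4/80+ libraries. The log2 fold change was 11.15 ± 0.27 (edgeR quasi-likelihood, adjusted p = 7.9e-12), the highest of the 35 genes, from 23 to 60 counts per kidney library and 13282 to 31029 counts per F4/80+ library.

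Fosb (chr7:19302696-19310051), a close relative of Fos, was at 0.479, 1.02 and 0.570 CPM in Arg/Arg and 0.667, 0.685 and 0.113 CPM in Trp/Trp kidneys. It was at 556, 354 and 248 CPM in Arg/Arg and 258, 664 and 498 CPM in Trp/Trp F4/80+ preparations, a log2 fold change of 9.40 ± 0.39 without overlap between sample types. The third member, Fosl2, is expressed more steadily in many tissues, and was at 26.4 to 41.5 CPM in kidney and 44.4 to 99.6 CPM in F4/80+ libraries, a log2 fold change of 1.02 ± 0.17.

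Jun (chr4:95049034-95052222), the main Fos partner, was already well expressed in whole kidney, at 63.2, 58.2 and 44.96 CPM in Arg/Arg and 46.8, 40.8 and 38.2 CPM in Trp/Trp kidneys. It was at 941, 885 and 655 CPM in Arg/Arg and 1059.8, 1007 and 944 CPM in Trp/Trp F4/80+ preparations, a log2 fold change of 4.24 ± 0.14. All F4/80+ libraries lay above all kidney libraries for this gene. Junb, which can replace Jun in AP-1 and restrain it, was at 16.1, 18.03 and 18.6 CPM in Arg/Arg and 21.5, 18.2 and 20.6 CPM in Trp/Trp kidneys. Junb was at 90.1, 84.4 and 49.1 CPM in Arg/Arg and 116, 99.3 and 106 CPM in Trp/Trp F4/80+ preparations, and the log2 fold change was 2.25 ± 0.14. Jund, the growth-restraining Jun protein that resting cells carry, went the opposite way. It was at 54.1, 54.4 and 50.5 CPM in Arg/Arg and 47.95, 44.7 and 46.3 CPM in Trp/Trp kidneys and at 11.2, 10.4 and 7.44 CPM in Arg/Arg and 14, 13.8 and 10.5 CPM in Trp/Trp F4/80+ preparations, with no overlap and a log2 fold change of -2.16 ± 0.12. All 3 Jun genes overlap an antisense or neighbouring transcript on the opposite strand (Junos, Prdx2 and Gm11175), and the sources used here do not say whether counting used the strand.

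The EGR zinc finger factors bind GC-rich sites and are known targets of serum response factor. Egr1 was at 8.85, 5.89 and 5.16 CPM in Arg/Arg and 11.2, 5.01 and 5.46 CPM in Trp/Trp kidneys. It was at 1859, 1655 and 1132 CPM in Arg/Arg and 2443, 2111 and 2111 CPM in Trp/Trp F4/80+ preparations, a log2 fold change of 8.06 ± 0.28 (adjusted p = 2.4e-10, edgeR). Fos and Egr1 together made up 37.4 to 43.9% of the summed level of the 35 genes in F4/80+ libraries and 0.504 to 1.06% in kidney. Egr2 was at 0.479, 0.180 and 0.268 CPM in Arg/Arg and 1.59, 0.284 and 0.338 CPM in Trp/Trp kidneys. Egr2 was at 54.5, 32.5 and 27.01 CPM in Arg/Arg and 50.7, 69.1 and 68.8 CPM in Trp/Trp F4/80+ preparations, a log2 fold change of 6.66 ± 0.38. Trp/Trp kidney 1 stood above the other kidney libraries for this gene, and all F4/80+ libraries stood above it. Egr3, the rarest of the 35 genes per length in both sample types, ranged over 0.0473 to 0.783 CPM in kidney and 1.14 to 8.93 CPM in F4/80+ libraries, with 2 to 27 counts per kidney library, and its log2 fold change was 3.51 ± 0.54.

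Atf3 (chr1:191170296-191218039), a stress-induced factor that represses inflammatory and other genes, was at 3.96, 5.97 and 2.61 CPM in Arg/Arg and 3.25, 1.44 and 2.42 CPM in Trp/Trp kidneys. It reached 1090.0, 530.5 and 489 CPM in Arg/Arg and 692, 1114 and 1155 CPM in Trp/Trp F4/80+ preparations, a log2 fold change of 8.04 ± 0.34. Within the F4/80+ preparations Atf3 varied more than Jun, with a coefficient of variation of 36.6% against 15.4% over the 6 libraries. Maff, a small MAF protein without its own activation domain, was at 4.50 to 6.46 CPM in kidney and 19.6 to 42.5 CPM in F4/80+ libraries (2.68 ± 0.18 on the log2 scale). Mafk, of the same family, differed little: it was at 45.2 to 53 and 43.9 to 72.5 CPM, overlapped between sample types and had a log2 fold change of 0.33 ± 0.12 (adjusted p = 0.0321, edgeR). Its call was lost when any of 5 libraries was left out, namely Arg/Arg kidney 1, Trp/Trp kidney 1, Trp/Trp kidney 3, Arg/Arg F4/80+ 1 (log2 fold change 0.19) or Trp/Trp F4/80+ 3, and Mafk also overlaps Tmem184a on the opposite strand.

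The NR4A genes encode orphan nuclear receptors that are active without a ligand and are controlled by their amount. Nr4a1 was at 11.4, 12.4 and 4.52 CPM in Arg/Arg and 8.26, 5.48 and 5.52 CPM in Trp/Trp kidneys. It was at 200.5, 106 and 70.5 CPM in Arg/Arg and 181, 182 and 214 CPM in Trp/Trp F4/80+ preparations, a log2 fold change of 4.31 ± 0.30. Nr4a2 was at 0.862, 1.48 and 1.07 CPM in Arg/Arg and 1.33, 0.946 and 0.732 CPM in Trp/Trp kidneys. Its level was 15.3, 8.09 and 6.85 CPM in Arg/Arg and 17.5, 17.5 and 19.96 CPM in Trp/Trp F4/80+ preparations (3.63 ± 0.24 on the log2 scale), and Nr4a3 rose by 2.59 ± 0.29 on the log2 scale, with kidney libraries at 1.01 to 3.07 CPM and F4/80+ libraries at 5.94 to 14.7 CPM. All 3 receptors were higher in every F4/80+ library than in any kidney library.

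The KLF zinc finger factors divided by size of change. Klf6 was at 58.4, 83.2 and 66.7 CPM in Arg/Arg and 66.4, 58.8 and 52.8 CPM in Trp/Trp kidneys. It was at 993, 475 and 622 CPM in Arg/Arg and 503, 1268 and 978 CPM in Trp/Trp F4/80+ preparations, a log2 fold change of 3.64 ± 0.24. Klf4, which in macrophages and endothelium controls inflammatory genes, was at 14.98, 14.5 and 16.99 CPM in Arg/Arg and 22.4, 14.5 and 16.7 CPM in Trp/Trp kidneys. Klf4 was at 180.0, 100.2 and 81.8 CPM in Arg/Arg and 137, 241 and 158 CPM in Trp/Trp F4/80+ preparations (3.14 ± 0.21). Both had clear gaps between sample types. Klf2, known from endothelium under flow, was at 32.9, 25.5 and 32.1 CPM in Arg/Arg and 38.3, 31.5 and 31.2 CPM in Trp/Trp kidneys. It was at 73.1, 32.4 and 25.1 CPM in Arg/Arg and 43.98, 94.6 and 64.6 CPM in Trp/Trp F4/80+ preparations, so that the sample types overlapped. Its log2 fold change was 0.76 ± 0.24. Klf10, a TGF-beta response gene, moved by 0.84 ± 0.18, with kidney libraries at 17.7 to 39.97 and F4/80+ libraries at 40.3 to 57.1 CPM.

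Srf, the factor that binds CArG boxes in the promoters of many of these genes, was lower in F4/80+ preparations. It was at 32.4, 31.9 and 27.8 CPM in Arg/Arg and 30.7, 26.7 and 26.6 CPM in Trp/Trp kidneys. It was at 20.9, 20.5 and 11.2 CPM in Arg/Arg and 24.1, 19.03 and 22.4 CPM in Trp/Trp F4/80+ preparations, a log2 fold change of -0.59 ± 0.15 without overlap. Myc, which drives growth and metabolism, was at 7.35, 9.05 and 10.96 CPM in Arg/Arg and 7.25, 8.46 and 9.57 CPM in Trp/Trp kidneys. Myc was at 17.3, 25.8 and 13.7 CPM in Arg/Arg and 39.7, 20.4 and 11.2 CPM in Trp/Trp F4/80+ preparations (1.28 ± 0.26), with the lowest F4/80+ library just above the highest kidney library. Csrnp1, a nuclear protein induced by AXIN1, rose by 2.51 ± 0.21 on the log2 scale, with kidney libraries at 8.35 to 14.4 CPM and F4/80+ libraries at 32.2 to 87.5 CPM.

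**Figure D2:**
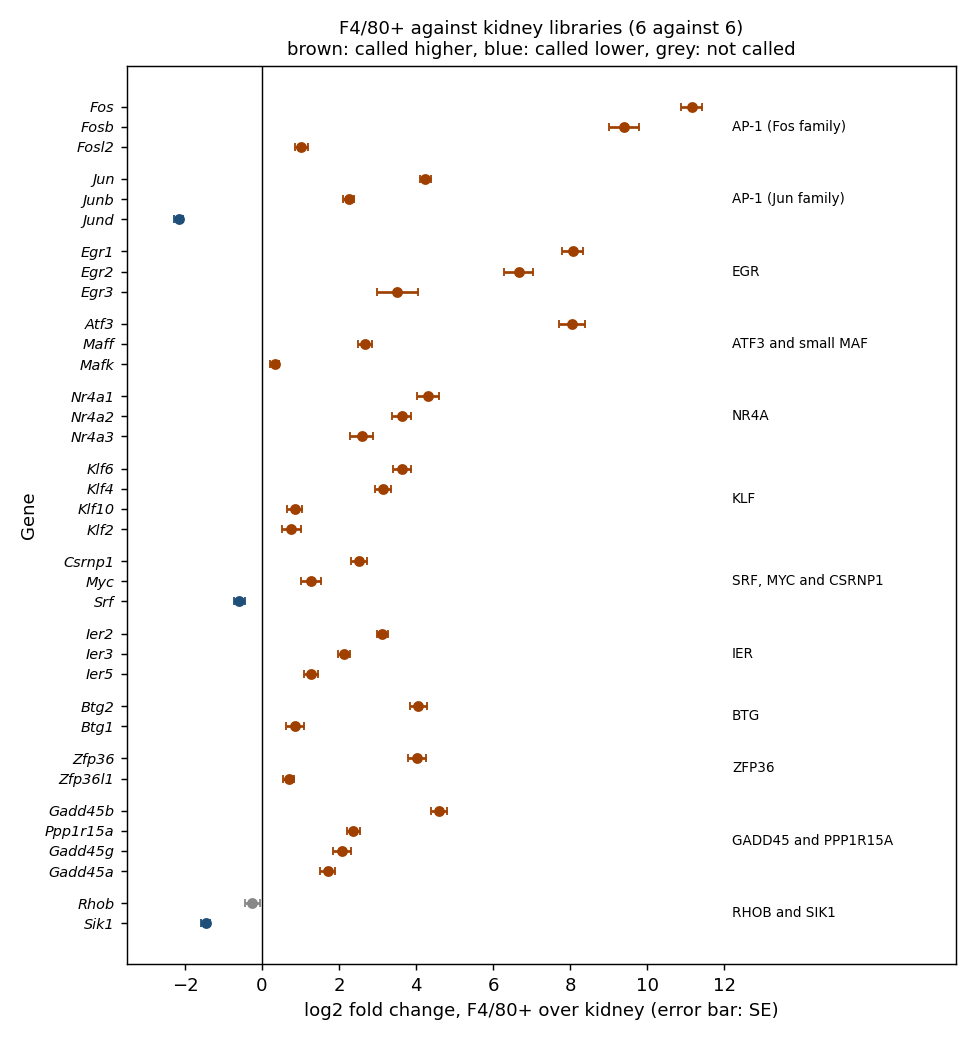
Log2 fold change of F4/80+ over kidney libraries (6 against 6) with its SE, by gene family. Of the 35 genes 31 were called higher (brown), 3 lower (blue: Jund, Sik1 and Srf) and Rhob was not called (grey), with Fos at 11.15 and Jund at -2.16 as the extremes.

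The IER genes are named for immediate early response and encode short regulatory proteins. Ier2 was at 11.6, 9.49 and 9.85 CPM in Arg/Arg and 12, 9.48 and 10.5 CPM in Trp/Trp kidneys. It was at 90.1, 83.2 and 55.8 CPM in Arg/Arg and 122, 97.3 and 110.3 CPM in Trp/Trp F4/80+ preparations (3.12 ± 0.14). Ier3, an antiapoptotic NF-kappaB target, was at 45.8, 41.5 and 42.7 CPM in Arg/Arg and 52.4, 44.7 and 46.8 CPM in Trp/Trp kidneys. Ier3 was at 230.3, 126 and 103 CPM in Arg/Arg and 243, 278 and 260.1 CPM in Trp/Trp F4/80+ preparations (2.13 ± 0.17). Neither gene overlapped between sample types. Ier5 rose by 1.27 ± 0.18 on the log2 scale, with kidney libraries at 15.4 to 22.2 CPM and F4/80+ libraries at 27.3 to 63.4 CPM.

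Btg2 (chr1:134075170-134079120), an antiproliferative p53 target that speeds the shortening of poly(A) tails, was at 36.7, 34.3 and 31.3 CPM in Arg/Arg and 40.1, 31.8 and 30.7 CPM in Trp/Trp kidneys. It was at 703, 347 and 310.5 CPM in Arg/Arg and 481, 857 and 816 CPM in Trp/Trp F4/80+ preparations, a log2 fold change of 4.06 ± 0.23. Btg1, its relative in resting cells, differed by 0.85 ± 0.23, and its ranges of 79.6 to 108 CPM in kidney and 78.7 to 260.2 CPM in F4/80+ libraries overlapped. Reads of Btg1 may be shared with Btg1-ps1 and Btg1-ps2, which are named as its pseudogenes but annotated as protein-coding.

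Zfp36 (chr7:28376784-28380253), which encodes tristetraprolin, was at 80.9, 35.2 and 33.8 CPM in Arg/Arg and 52.99, 54.4 and 58.9 CPM in Trp/Trp kidneys. It was at 880.2, 740.1 and 459 CPM in Arg/Arg and 1039.8, 1053 and 1085 CPM in Trp/Trp F4/80+ preparations, a log2 fold change of 4.03 ± 0.24. Zfp36l1, a relative with the same RNA-binding zinc fingers, was the member with the most counts in 5 of the 6 kidney libraries, with Rhob first in Arg/Arg kidney 1. It ranged over 114 to 186 CPM in kidney and 173 to 342 CPM in F4/80+ libraries, which overlapped, for a log2 fold change of 0.69 ± 0.15. In all 6 F4/80+ libraries the member with the most counts was Fos instead, at rank 14 to 55 among all genes by count.

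Of the GADD45 stress sensors, which bind the kinase MTK1 and cell cycle proteins, Gadd45b changed most. It was at 5.27, 6.45 and 6.23 CPM in Arg/Arg and 7.10, 5.86 and 5.24 CPM in Trp/Trp kidneys. It was at 167, 101 and 65.3 CPM in Arg/Arg and 187, 199.5 and 192 CPM in Trp/Trp F4/80+ preparations (4.60 ± 0.21). Gadd45g was at 101, 45.1 and 48.2 CPM in Arg/Arg and 44.4, 62.2 and 69.5 CPM in Trp/Trp kidneys, where Arg/Arg kidney 1 stood highest. It was at 262, 267 and 138 CPM in Arg/Arg and 366, 306 and 252 CPM in Trp/Trp F4/80+ preparations (2.09 ± 0.23). Gadd45a, the p53-induced member, was at 33.4, 28.1 and 33.5 CPM in Arg/Arg and 25.5, 29.6 and 33 CPM in Trp/Trp kidneys. Gadd45a was at 129, 53.8 and 68 CPM in Arg/Arg and 85.1, 140.2 and 132 CPM in Trp/Trp F4/80+ preparations (1.71 ± 0.20). All 3 genes were higher in every F4/80+ library than in any kidney library. Ppp1r15a, also GADD34, which restarts translation after stress by directing a phosphatase to eIF2-alpha, was at 21.8, 24.9 and 19.1 CPM in Arg/Arg and 18.9, 22.7 and 21.2 CPM in Trp/Trp kidneys. Ppp1r15a was at 126, 84.7 and 54.9 CPM in Arg/Arg and 146, 129.8 and 140.0 CPM in Trp/Trp F4/80+ preparations (2.37 ± 0.17). Exons of Ppp1r15a, Gadd45a, Csrnp1, Zfp36 and Zfp36l1 also overlap other transcripts on the opposite strand, and Zfp36l1 has a processed pseudogene, so their counts are uncertain to that extent.

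Rhob, a small GTPase of endosomes, and Sik1, a salt-inducible kinase that holds CREB coactivators outside the nucleus, did not rise. Rhob was at 144, 101 and 117 CPM in Arg/Arg and 132, 104 and 131 CPM in Trp/Trp kidneys. It was at 111, 72.3 and 71.6 CPM in Arg/Arg and 66.5, 165 and 137 CPM in Trp/Trp F4/80+ preparations, with overlap and a log2 fold change of -0.25 ± 0.20 (adjusted p = 0.274, edgeR). Sik1 was at 100.3, 101 and 99.6 CPM in Arg/Arg and 85.8, 105 and 107 CPM in Trp/Trp kidneys. Sik1 was at 30.2, 35.1 and 28.1 CPM in Arg/Arg and 45.7, 46.3 and 33.9 CPM in Trp/Trp F4/80+ preparations, lower in every F4/80+ library, with a log2 fold change of -1.46 ± 0.11 (adjusted p = 1.29e-07, edgeR).

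Genes that act before the immediate early genes did not move with them as a list. Of 24 kinases and factors upstream of these genes that were tested, 7 were higher, 11 lower and 6 not called in F4/80+ preparations, with a median log2 fold change of -0.24 against -0.13 over all genes. Crem, a CREB relative induced by cAMP, rose by 1.24 ± 0.18, Mrtfb, a coactivator of serum response factor, by 1.22 ± 0.12, and Atf2, a target of stress kinases, by 1.15 ± 0.18. Elk4, which binds next to serum response factor, rose by 0.99 ± 0.09. The kinase genes Rps6ka4 (MSK2), Mapk14 (p38-alpha) and Map2k2 (MEK2) were lower, at log2 fold changes of -2.70 ± 0.18, -0.90 ± 0.10 and -0.72 ± 0.12, as was the coactivator gene Mrtfa at -1.01 ± 0.15. A list of 42 further early response and dissociation-linked genes had 28 higher, 8 lower and 6 not called, with a median of 1.25. Its leading genes were Socs3, an inhibitor of cytokine signalling (5.79 ± 0.24), Rgs1, an inhibitor of G protein signalling (4.58 ± 0.63), Nfkbiz, a nuclear NF-kappaB regulator (4.12 ± 0.17), and Hspa1a, the inducible heat shock protein 70 (3.33 ± 0.30). Ccn2, a target of YAP and TGF-beta (-2.85 ± 0.26), Cebpb (-2.01 ± 0.17), the aldosterone target Sgk1 (-1.30 ± 0.26) and the clock gene Per1 (-1.19 ± 0.19) were lower.

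Letters that are known to carry early induction were looked for in promoters and in 3′ untranslated regions. RefSeq promoter windows of the build GRCm38.p6, 250 bases before to 50 after a start, were matched by symbol for 29 of the 36 genes, in 38 windows, and searched on both strands. Egr1, Egr3, Ier2, Klf10, Myc and Sik1 were not searched. For the genes searched, Fos among them, sites farther than 250 bases upstream were not covered. The Jund window (chr8:70697489-70697788) ended before the start of the gene as placed here (chr8:70698949). The CArG box was in the windows of Egr2, Srf and Zfp36, 10.3% of the 29 genes and 1.81% of all 27025 genes with a window. The CRE, TGACGTCA, was in those of Btg2, Maff and Ppp1r15a, 10.3% against 2.03%. Its short form TGACG, which the CRE contains, was in 58.6% against 23.0%. The EGR motif GCGNGGGCG was in 41.4% against 6.27%, and the AP-1 motif TGANTCA in 6.90% against 8.97%. These are matches of letters in a window, which were not tested as binding sites. The shares of all genes include genes that were not tested for expression here, and base composition was not matched. The 200 bases upstream of the start are shown for the 3 genes with a CArG box and for Btg2, with CArG boxes and the CRE in capitals, since of these Egr2, Zfp36 and Btg2 were among the 10 genes with the highest fold changes and Srf was lower. They lie at chr10:67537670-67537869 (plus strand, Egr2), chr7:28379229-28379428 (minus strand, Zfp36), chr17:46556163-46556362 (minus strand, Srf) and chr1:134079156-134079355 (minus strand, Btg2).
Egr2: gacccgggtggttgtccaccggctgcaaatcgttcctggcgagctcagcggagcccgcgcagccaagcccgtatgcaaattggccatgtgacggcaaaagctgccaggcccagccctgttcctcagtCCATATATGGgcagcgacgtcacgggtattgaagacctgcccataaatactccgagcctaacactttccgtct
Zfp36: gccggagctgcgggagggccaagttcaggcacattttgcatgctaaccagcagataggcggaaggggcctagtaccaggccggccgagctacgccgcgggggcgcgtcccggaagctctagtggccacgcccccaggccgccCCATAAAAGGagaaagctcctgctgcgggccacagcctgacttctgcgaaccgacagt
Srf: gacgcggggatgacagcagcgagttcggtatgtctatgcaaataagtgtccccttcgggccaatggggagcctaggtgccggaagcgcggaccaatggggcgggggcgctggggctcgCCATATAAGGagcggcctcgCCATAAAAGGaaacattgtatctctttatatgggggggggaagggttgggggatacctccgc
Btg2: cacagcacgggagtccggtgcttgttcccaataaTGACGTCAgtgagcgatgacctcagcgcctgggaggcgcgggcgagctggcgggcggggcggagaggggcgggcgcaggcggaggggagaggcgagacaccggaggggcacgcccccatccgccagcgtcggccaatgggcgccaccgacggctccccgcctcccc
The CArG box of Egr2 began 73 bases and that of Zfp36 58 bases before the start shown. Srf had boxes at 82 and 62 bases, and the CRE of Btg2 began 166 bases before its start. Egr2 has several listed starts. The same box lay 72 or 133 bases before other ones, and a different box, CCTTTTTTGG, lay 72 bases before a further start.

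AU-rich elements mark messenger RNAs for rapid decay by proteins such as tristetraprolin, itself among the 35 genes. In the GENCODE M21 transcript with the longest coding part of each gene, the 7-base core TATTTAT was in the 3′ untranslated region of 21 of 35 genes (60%), against 27.5% of 13533 genes. The 9-base form TTATTTATT, which contains it, was in 8 genes (22.9%), against 7.07%. The median length of that region was 1200 bases over the 35 genes and 979 over all. The 8 genes were Fos, Zfp36, Maff, Csrnp1, Ppp1r15a, Fosl2, Zfp36l1 and Srf, of which the first 7 were higher and Srf was lower in F4/80+ preparations. The element is shown in capitals with 10 bases on either side for 4 of them, the highest of the 8 by fold change, tristetraprolin's own transcript, the one with 4 overlapping copies, and the one that was lower.
Fos: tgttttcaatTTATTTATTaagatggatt
Zfp36: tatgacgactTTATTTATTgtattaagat
Ppp1r15a: tagtttcctaTTATTTATTtatttattta
Srf: acggcaccacTTATTTATTgttgcctttt
The 35 genes were also short. Their median span was 5260 bases against 24941 over all genes, with a median of 3 exons against 9, and 28 of 35 (80%) had at most 4 exons against 20.6%. Sik1, with 14 exons, had the most, and was among the 3 genes that were lower, while Jund, the lowest of the 35 by fold change, has 1 exon.

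The genotype comparison asked whether Trp/Trp mice differed from Arg/Arg mice in these genes within each sample type. In whole kidney none of the 34 genes tested passed (Egr3 fell below the count filter), and none of all 14464 genes (0%) did by edgeR, where 826 genes (5.71%) had an unadjusted p under 0.05 and DESeq2 called 15 (0.0977%), none of them among the 34. The log2 fold changes (Trp/Trp over Arg/Arg) were positive for 17 and negative for 17 genes (50.6% of all genes were positive), with a median of -0.0026 against 0.0021 over all genes, and 3 of the 34 had an unadjusted p under 0.05. Summed over the 35 genes, Arg/Arg kidneys held 1187 ± 30.01 CPM and Trp/Trp kidneys 1166 ± 47.2 CPM (SD, n = 3). Over the same kidneys the median log2 fold change was 0.55 over 13 macrophage, 0.81 over 6 dendritic cell and 1.07 over 5 T and NK cell markers, with none called. In kidney data simulated with this depth and the same common spread for every gene, edgeR recovered 79.1% of genes changed 1.5-fold and 97% of those changed 2-fold. The changed genes were drawn from those above a minimum mean count. Among the 35 genes the coefficient of variation over the 6 kidney libraries ran from 6.43% (Mafk) to 102% (Egr2). These rates therefore do not hold for those that spread widely or have few counts.

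The smallest p-values in kidney belonged to Jund and Jun. Jund was at 53.0 ± 2.18 CPM in Arg/Arg and 46.3 ± 1.62 CPM in Trp/Trp kidneys (SD, n = 3). Its log2 fold change was -0.21 ± 0.06 (unadjusted p = 0.00464, adjusted p = 0.843, edgeR). It was the only one of the 35 genes whose genotypes did not overlap in CPM. Of the 13540 genes compared so, 3.75% were non-overlapping and lower, and 6.26% higher. Jun was at 55.5 ± 9.42 and 41.9 ± 4.39 CPM, a log2 fold change of -0.42 ± 0.12 (unadjusted p = 0.00618, edgeR), with Trp/Trp kidney 1 above Arg/Arg kidney 3. Atf3 followed at -0.87 ± 0.36 (unadjusted p = 0.0363, edgeR) and Klf6 at -0.25 ± 0.12 (unadjusted p = 0.0766, edgeR), with overlapping genotypes for both. Trp/Trp kidney 1 had the highest kidney value for 17 of the 35 genes and the lowest for 5. That library also held the highest summed level of fibroblast, pericyte and smooth muscle markers (1000 CPM, others 479 to 513), of B and plasma cell markers (90.3 CPM, others 4.32 to 5.67) and of adipocyte markers (53.6 CPM, others 4.52 to 11.9). It was also highest for macrophage (632 CPM, others 513 to 570), dendritic cell (33.2 CPM, others 11.6 to 21.7) and T and NK cell markers (11.5 CPM, others 3.53 to 7.04). For these last lists Trp/Trp kidneys 2 and 3 were also above every Arg/Arg kidney. Trp/Trp kidney 1 was lowest for proximal tubule markers (23819 CPM, others 24938 to 28985). The part of these in the kidney values was not tested, and the count of 0 genes held when that library was left out.

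**Figure D3:**
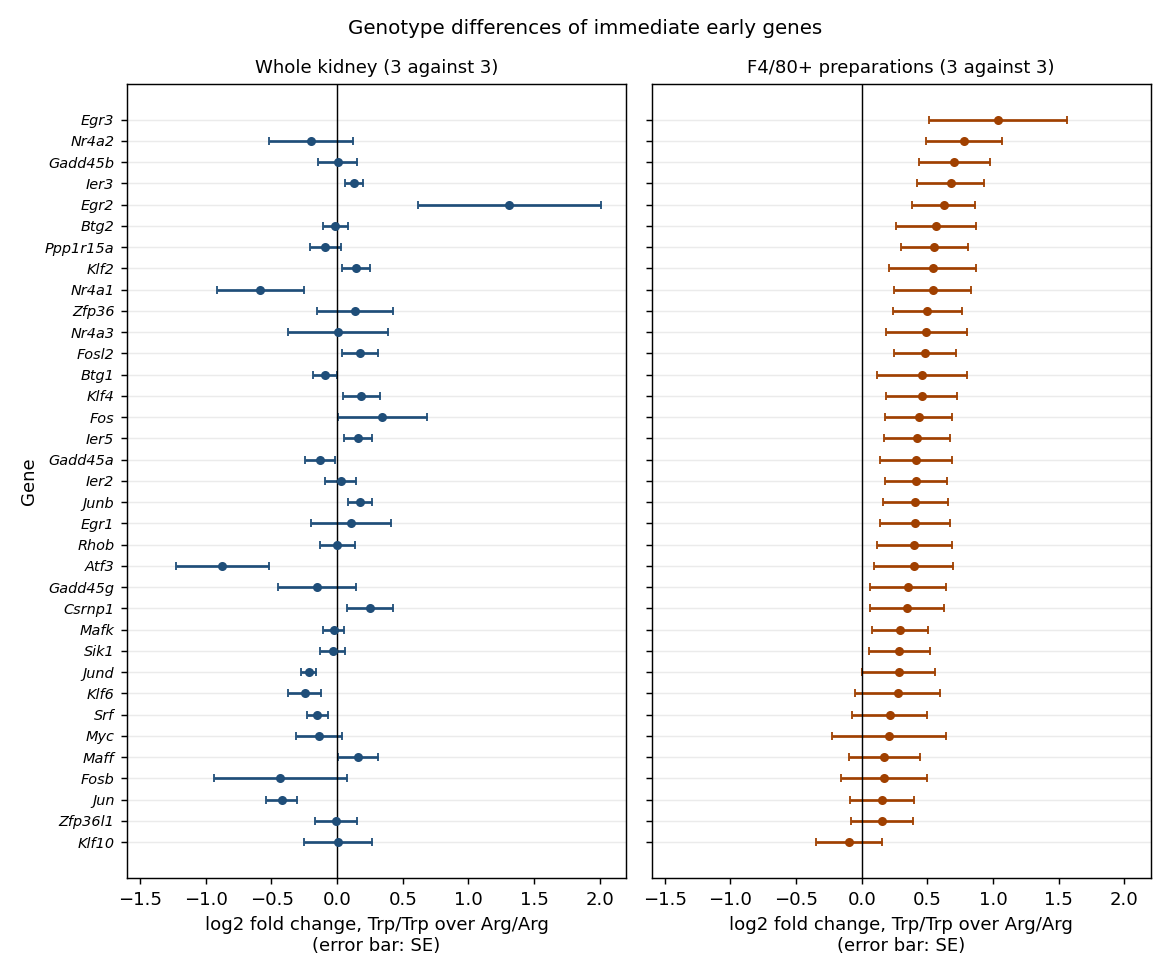
Log2 fold change of Trp/Trp over Arg/Arg with its SE for each gene in whole kidney (left) and in F4/80+ preparations (right), 3 against 3 libraries each, ordered by the right panel. In kidney 17 of 34 genes are above 0, in F4/80+ preparations 34 of 35, and none passed the test in either.

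In F4/80+ preparations 34 of the 35 genes had a positive log2 fold change, against 51.1% of all genes, and Klf10 was at -0.10 ± 0.25. The median was 0.41 over the 35 genes and 0.01 over all. None of the 35 passed, and none of all 15225 genes (0%) did by edgeR, where 1224 genes (8.04%) had an unadjusted p under 0.05 and DESeq2 called 4 (0.0234%), none among the 35. The genes are not independent of each other, so the count of 34 does not measure evidence for a genotype effect. The spread between replicates was wider here, with a common biological coefficient of variation of 0.28 against 0.101 in kidney. In data simulated with that common value for every gene, edgeR recovered 1.5% of genes changed 1.5-fold, 17.9% of those changed 2-fold and 100% of those changed 4-fold. Among the 35 genes the coefficient of variation over the 6 libraries ran from 12.5% (Klf10) to 74.3% (Egr3), so single genes can differ from these rates. The authors' deposited fold changes, which come from the same counts and are no separate evidence, were positive (Trp/Trp over Arg/Arg) for 34 of the 35 genes. None was called, 6 of the 35 had no adjusted p there, Nr4a2 among them, and the smallest adjusted p of the others was 0.294 (DESeq2).

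Of the 35 genes 4 had an unadjusted p under 0.05, and these were Nr4a2, Ier3, Gadd45b and Egr2. Nr4a2 was at 10.1 ± 4.54 CPM in Arg/Arg and 18.3 ± 1.42 CPM in Trp/Trp preparations (SD, n = 3), a log2 fold change of 0.78 ± 0.29 (unadjusted p = 0.0203, adjusted p = 0.605, edgeR). Ier3 was at 153 ± 67.9 and 261 ± 17.6 CPM (0.68 ± 0.26), and Gadd45b at 111 ± 51.7 and 193 ± 6.28 CPM (0.70 ± 0.27). For these 3 genes every Trp/Trp library was above every Arg/Arg library. Egr2 was at 38.0 ± 14.6 and 62.9 ± 10.5 CPM (0.62 ± 0.24), with Arg/Arg 1 above Trp/Trp 1. Over the 35 genes, 9 had every Trp/Trp above every Arg/Arg library in CPM, against 7.88% of the 12744 genes compared so. They were Egr1, Gadd45b, Ier2, Ier3, Jun, Junb, Nr4a2, Ppp1r15a and Zfp36. For Jun the gap was only from 941 to 944 CPM, with a log2 fold change of 0.16 ± 0.25 (unadjusted p = 0.536, edgeR). None had every Trp/Trp below every Arg/Arg library (3.06% of the genes compared). These CPM carry no TMM factor, and without TMM the median log2 fold change of all genes was 0.13 higher.

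The Arg/Arg libraries disagreed with each other. The 35 genes summed to 12551, 8511 and 7046 CPM in Arg/Arg replicates 1, 2 and 3, and to 11910, 14529 and 13366 CPM in the Trp/Trp ones. Arg/Arg 1 was thus above Trp/Trp 1, and it stood at or above the lowest Trp/Trp library for 24 of the 35 genes. Arg/Arg 3 had the lowest of the 6 values for 24 genes and was below all Trp/Trp libraries for 30, as Arg/Arg 2 was for 27. With each library left out in turn, the median of the 35 genes ran from 0.28 to 0.58.

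Summed markers of several cell types also varied among these libraries, some along with the immediate early sums, some opposite to them and some in another order. Summed over 10 proximal tubule markers, Arg/Arg 1, 2 and 3 held 20344, 42692 and 36154 CPM, and Trp/Trp 1, 2 and 3 held 24791, 13175 and 21813 CPM, so that both libraries with the lowest immediate early sums had the most proximal tubule RNA. Summed over 7 markers of the thick ascending limb and distal tubule, the libraries held 17352, 7288 and 6966 CPM in Arg/Arg and 14984, 25192 and 14120 CPM in Trp/Trp, in which both of the same libraries were lowest. The 8 collecting duct markers summed to 2278, 1214 and 1084 CPM and to 2018, 1942 and 3056 CPM, again lowest in Arg/Arg 2 and 3. Between genotypes all 10 proximal tubule markers had a negative log2 fold change (median -0.93). All 7 thick limb and distal and all 8 collecting duct markers had a positive one (medians 0.59 and 0.49), and none of these passed. The 10 markers of fibroblasts, pericytes and smooth muscle summed to 769, 443 and 302 CPM in Arg/Arg and 532, 1114 and 1043 CPM in Trp/Trp, which is the order of the libraries in the immediate early sums. Most of that sum came from Rgs5 (143 to 583 CPM), Acta2 (78.8 to 322 CPM) and Myh11 (71.6 to 212 CPM), and each other marker reached at most 16.1 CPM (Dcn). Of the 10 markers 8 were tested between genotypes. All 8 had a positive log2 fold change (median 0.67) and none passed. The 12 macrophage markers listed summed to 552 to 813 CPM, most of it from Cd81, a gene of many cell types, whose genotype log2 fold change was 0.03 ± 0.24. Without Cd81, left out after its values were seen, the other 11 summed to 230, 128 and 122 CPM in Arg/Arg and 188, 252 and 271 CPM in Trp/Trp, again lowest in Arg/Arg 2 and 3. None of the 12 passed, 11 were positive, and their median of 1.08 was above that of the 35 immediate early genes. An unadjusted p under 0.05 (edgeR) was found for 7 positive markers and 1 negative marker. C1qc, a complement subunit, had the smallest p of them (2.02 ± 0.52, unadjusted p = 0.0024, edgeR), Adgre1 was at 1.07 ± 0.73, and Mertk alone was negative, at -0.47 ± 0.20. The mitochondrial share, from 70.1% in Trp/Trp 1 to 83.6% in Arg/Arg 1 and Trp/Trp 3, did not follow the same order. The part of these cell types in the difference between genotypes was not tested.

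**Figure D4:**
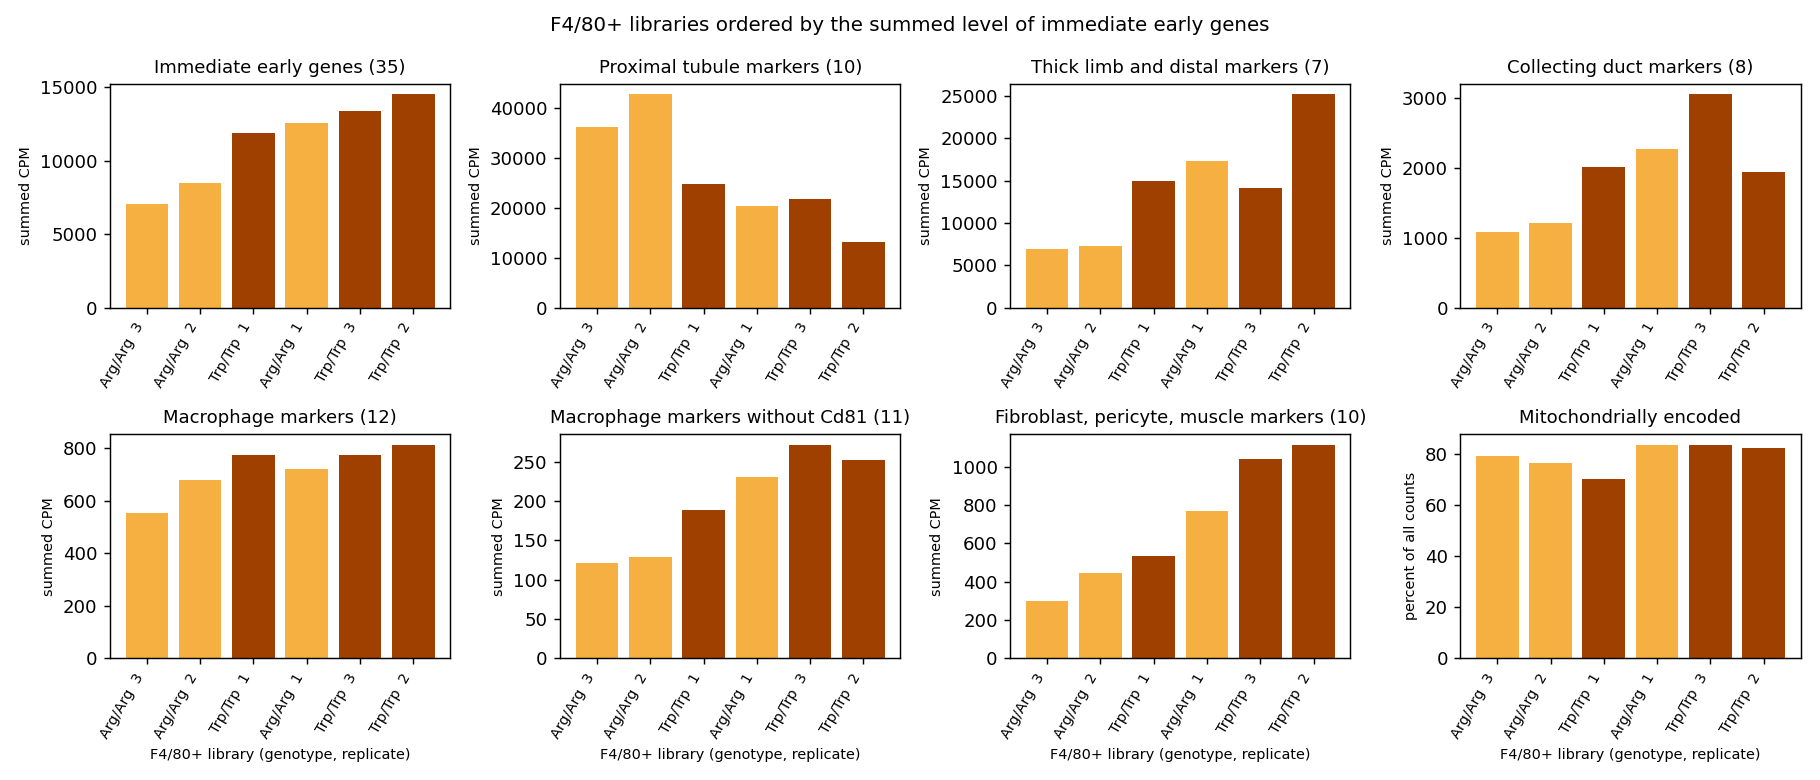
Bars give, for the 6 F4/80+ libraries ordered by the summed level of the 35 immediate early genes, that sum, the summed CPM of 5 marker lists, the macrophage list also without Cd81, and the percentage of counts from mitochondrially encoded genes, with Arg/Arg in light and Trp/Trp in dark brown. Arg/Arg 3 and 2, at the left with 7046 and 8511 CPM of immediate early genes, hold the most proximal tubule marker RNA and the least of the distal, collecting duct, stromal and, without Cd81, macrophage markers. Endothelial and podocyte markers, which followed another order, are not drawn.

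The difference between the genotype effects of both sample types was tested as an interaction over all 12 libraries. None of the 35 genes passed and none of all 13578 did (0%) by edgeR, while 859 genes (6.33%), among them 6 of the 35, had an unadjusted p under 0.05, and DESeq2 called 7 (0.051%), none among the 35. The interaction term was positive for 34 of the 35 genes and for 67.1% of all genes, with medians of 0.48 and 0.14. The smallest p-values were those of Jun (0.68 ± 0.24 on the log2 scale, unadjusted p = 0.0143, edgeR), Jund (0.61 ± 0.24), Atf3 (1.34 ± 0.54) and Nr4a2 (1.05 ± 0.47). The result rested on Arg/Arg F4/80+ replicate 1: without it, 844 of 13701 genes (6.16%) passed, among them 8 of the 35, with Ier3 at 1.04, Gadd45b at 1.19, Ppp1r15a at 1.06, Mafk at 0.67, Gadd45a at 1.07, Atf3 at 1.81, Nr4a2 at 1.47 and Btg2 at 1.12 on the log2 scale. Without it the 3 Trp/Trp libraries were set against Arg/Arg 2 and 3, which differ from them in the tubule, stromal and macrophage markers above. The genotype test within F4/80+ preparations called 0 genes when the same library was left out. The interaction fit gave each gene a single spread over both sample types, with a common biological coefficient of variation of 0.198. Fitted apart, that value was 0.101 in kidney and 0.28 in F4/80+ preparations. The part of this in the interaction calls was not tested.

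Neither list of related genes held a call between genotypes. Of the 24 upstream kinases and factors the median log2 fold change was -0.01 in kidney and 0.03 in F4/80+ preparations, and of the further early response genes it was 0.06 in kidney (42 tested) and 0.21 in F4/80+ preparations (41 tested). Dusp1, which dephosphorylates and so silences MAP kinases, had the smallest p of the latter list in kidney (0.53 ± 0.09, unadjusted p = 0.000285, edgeR) and was at -0.11 ± 0.24 in F4/80+ preparations. Hes1, a Notch target, had the smallest in F4/80+ preparations (0.74 ± 0.21, unadjusted p = 0.0046, edgeR) and was at -0.02 ± 0.10 in kidney.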

How the data were processed

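PolyA RNA was sequenced from whole kidneys and F4/80+ preparations. Each deposited table held the authors' raw read counts per gene and library, with 15361 genes in the kidney and 18145 in the F4/80+ table. The submitters' processing notes name STAR, DRAGEN, DESeq2 and the build mm10, without versions or roles, and do not say whether counting used the strand. The authors' deposited tables also held log2 fold changes and adjusted p-values, which were turned to Trp/Trp over Arg/Arg. The signal column (mean normalised count), the score columns (SE and Wald statistic) and the ratio column that the authors deposited were not used.

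The 36 genes and all lists were chosen with earlier results of these data known. CPM were computed over nuclear protein-coding counts. Genotypes were compared within each table with edgeR 4.0.16 (quasi-likelihood test, filterByExpr with a minimum count of 10, TMM), in R 4.3.3 with limma 3.58.1. Sample types and the interaction were fitted on 12 libraries and the genes shared by the tables, with summed counts as library size and no TMM. The p-values were adjusted over all genes tested (threshold 0.05), and each SE was the absolute log2 fold change divided by the square root of F. DESeq2 1.42.0, other scalings and filters, each library left out and a replicate block were alternatives. The procedure was tested on simulated counts with a common spread for all genes. Replicates are labelled biological. Spans, exons and 3′ untranslated regions came from GENCODE M21 (mm10), and promoters from RefSeq. Figures used matplotlib 3.10.9 under Python 3.11.15.

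Per-library values are printed for 21 genes that stand for their families, for the 6 largest positive log2 fold changes between sample types and all 4 negative ones (the rule allowed up to 6), and for the 4 smallest p-values of each genotype test and of the interaction. Other lists name up to 4 genes of largest change in each direction among those called, or of smallest p. Replicate numbers were checked for pairing, and same-numbered libraries did not deviate together.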

Additional observations from a re-analysis of the deposited data

Results flagged for a closer look

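Among the 6 kidney libraries, Trp/Trp kidney 1 lay far from the other 5 for 4 of the 35 genes. Its Egr2 level was 1.59 CPM where the others lay between 0.180 and 0.479 CPM. Klf4 was at 22.4 CPM there and at 14.5 to 17.0 CPM in the others. Ier5 was at 22.2 CPM and at 15.4 to 17.7 CPM in the others. Sik1 was low there, at 85.8 CPM, against 99.6 to 107 CPM. In all, 70 groups of 6 libraries (35 genes in each sample type) were checked for such a gap, of which 4 stood out, and chance alone flags about 1 in 20. None of the F4/80+ groups stood out.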

How the results depend on the processing

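Between sample types, 31 genes higher and 3 lower held under DESeq2, TMM scaling and no count filter, and all log2 fold changes of the 35 genes kept their sign in every alternative run. Leaving out a library in turn gave 30 to 31 higher, 3 lower, a median of 2.33 to 2.65 and 8007 to 9127 genes called in all. The change to 30 was the loss of Mafk. TMM moved the median of all genes by 0.13 and DESeq2 by 0.14, and the calls split into 4390 higher and 4344 lower or 4720 higher and 4447 lower, against 3578 and 5077. Replicate numbers did not pair the libraries (correlations of -0.40 to 0.12 between same-numbered ones). With the replicate block 30 genes were higher and 8351 were called in all, with Mafk at 0.32 (adjusted p = 0.0552, edgeR), and no genotype call appeared among the 35 genes. DESeq2 in place of edgeR called 15 genes between genotypes in kidney, 4 in F4/80+ preparations and 7 in the interaction, where edgeR called 0. With single libraries left out, the interaction gave 0 to 844 genes and 0 to 8 of the 35, the highest without Arg/Arg F4/80+ replicate 1, where Atf3 and Nr4a2 passed at 1.81 and 1.47. The causes were not tested. Without any library or under any setting, 0 of the 35 genes passed between genotypes. With nuclear protein-coding library size and no TMM the F4/80+ median of the 35 genes was 0.53, while that of all genes rose by 0.13. Depth limits Egr2, Egr3, Fos and Fosb in kidney, with 2 to 60 counts a library.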
